A study of Zea mays with 10 samples.

Results

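Genes of structural wall proteins, of wall loosening and of xyloglucan remodelling were followed in the stems of 5 inbred maize lines. The 5 genes were prcw1 (LOC542467), HRGP (LOC542371), expB4 (LOC541909), expB7 (LOC542649) and xet1 (LOC542312). They were found by symbol or synonym in the annotation of the array and in the reference gene table, and they make up 5 of the 1108 genes that the annotation names. They hold 7 probe sets, 2 each for prcw1 and HRGP and 1 for each of the others, and all 7 passed the filter on dim values, which asked for log2 4 on a minimum of 2 arrays. The genes were selected on these same array values, for their differences between lines and between pools, so their levels and differences are given below as a description, without a test.

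The lines were F7025 (Flint-Dent, from IodentXF113bm3), F7033 (Flint-Dent, from (LorenaXF252)XF252), F98902 (Dent, from Iodent), F2 (Flint, from lacaune) and Cm484 (Flint-Dent, from 200-2-1). The pedigree of F7025 names bm3, a brown midrib mutation of lignin synthesis, and the labels do not say whether the line carries it. Every line had 2 Affymetrix arrays, each with the stem RNA of 1 pool of 5 untreated plants, and nothing in the labels says that pools came from separate plots. The series text speaks of a comparison of organs, but the labels of all 10 arrays give stem and no treatment. Values are log2 units of GCRMA, in which probe sets without signal lie near 2, and a difference of 1 is a factor of 2. A stem extract mixes cell types, so fewer cells of a type and less transcript per cell cannot be told apart.

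Plant cell walls hold cellulose, hemicelluloses and a smaller share of structural proteins. Proline-rich proteins and hydroxyproline-rich glycoproteins such as extensins are laid down in the wall and can be cross-linked there, and the maize HRGP gene is known from vascular and young tissue and from responses to wounding. Expansins loosen the wall without cutting its polymers. The beta class is large in grasses, whose walls carry much glucuronoarabinoxylan and little xyloglucan. Xyloglucan endotransglycosylases cut xyloglucan chains and join the ends to other chains.

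The pools of F98902 agreed least and those of F2 best. Over all probe sets (not independent of each other) the pools of 1 line correlated at r between 0.985 and 0.997, and pools of different lines at 0.977 or less. The median absolute gap between pools was 0.26 in F98902 and 0.12 in F2. The labelled tissue was checked against marker genes. The 5 markers of lignifying stem tissue that had a probe set (cesa10, cesa11, CesA12, bk2 and bm1) read between 9.00 and 12.5 on every array. The 2 pollen markers, EXPB9 and the profilin gene PRO1, read between 2.13 and 2.23, without signal on any array. Of the 5 green tissue markers, 4 were bright on every array, from pep1 at 6.87 or more to ssu1 (a Rubisco small subunit) at 12.5 to 13.5, and ME1 (a malic enzyme of leaf bundle sheath) stayed below 4.

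The proline-rich wall protein gene prcw1 was bright in 4 lines and low, though above log2 4, in F7033. Its first probe set read 5.02 and 4.64 in the 2 pools of F7033, against 14.00 and 13.94 in F7025, 13.89 and 13.79 in F98902, 14.14 and 14.29 in F2 and 14.08 and 13.88 in Cm484. The 8 arrays of the other lines covered a range of only 13.79 to 14.29, and neither pool of F7033 came near it. The second probe set, whose suffix (_x_at) marks probes that may also match related transcripts, read 6.27 and 5.23 in F7033 and between 13.2 and 13.7 in the other lines. F7033 minus the mean of the other lines was -9.17 on the log2 scale for the first probe set (578-fold lower) and -7.62 for the second (197-fold lower). Among the 11067 probe sets tested, these differences took places 1 and 4 by absolute size for F7033. The reference table also lists this gene as PRP and Sf3a2.

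Apart from F7033, the line means of prcw1 lay close together, near the highest value measured (14.55), where differences may be compressed. In order of their means they were F2 (14.22 ± 0.10), Cm484 (13.98 ± 0.14), F7025 (13.97 ± 0.04), F98902 (13.84 ± 0.07) and F7033 (4.83 ± 0.27; SD, n = 2 each). The steps from Cm484 to F7025 and from F7025 to F98902 were smaller than the pooled SD of the pools (0.15), which includes the wider spread of F7033. The pools of F7025 and F98902 did not overlap with either probe set. F2 exceeded Cm484 by 0.24 with the first probe set, while the pools of these 2 lines overlapped with the second. The pools of F7033 differed by -0.39 (second minus first), a gap larger than that of 85.4% of tested probe sets in that line. With the second probe set they differed by -1.04, more than 98.8% of tested probe sets. A low value on an array can come from a scarce transcript or from a line's own sequence that the probes do not match, and these cannot be told apart here.

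**Figure D1:**
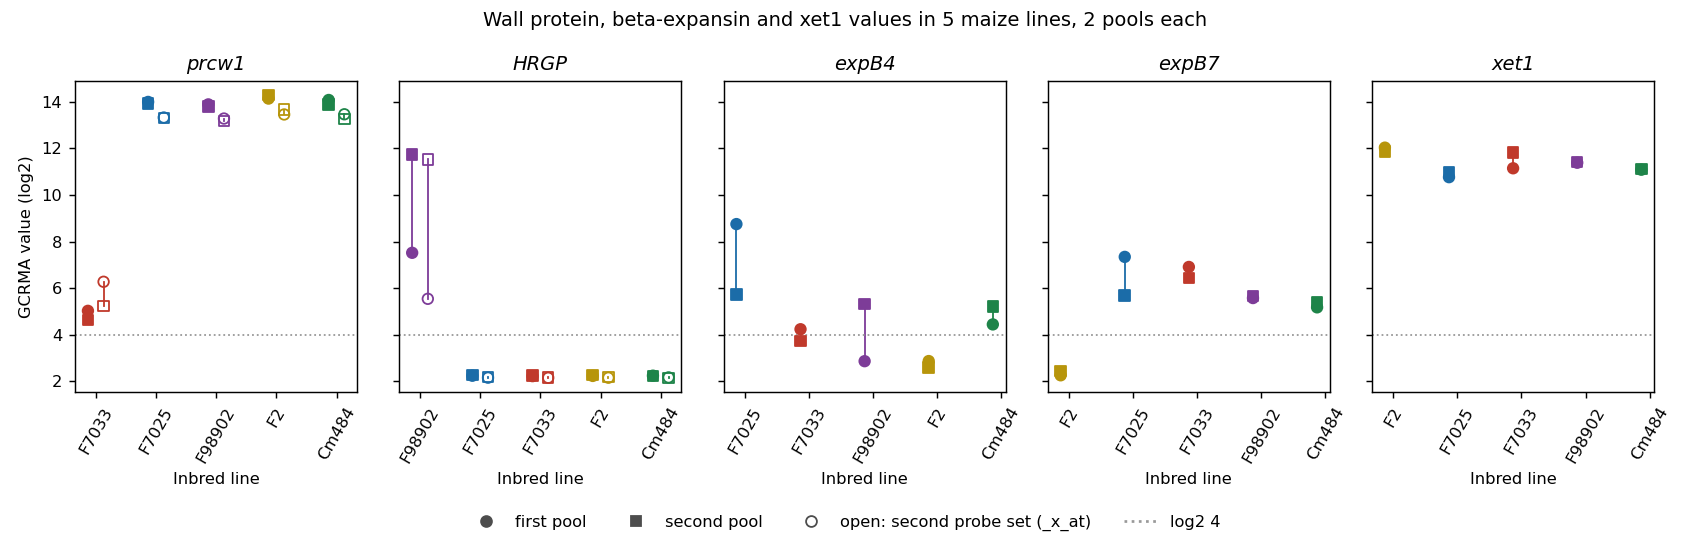
GCRMA values (log2) of the 5 genes in each line, with the line that stands furthest from the others at the left of each panel. Circles are first pools, squares second pools, joined by a line; open symbols are the second probe set of prcw1 and HRGP, and the dotted line marks log2 4. Both pools of F7033 lie near 5 for prcw1, HRGP is above 4 in F98902 only, and the gaps between pools are widest for HRGP in F98902 and expB4 in F7025.

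The hydroxyproline-rich glycoprotein gene HRGP had signal in F98902 only, and there its 2 pools were far apart. The first probe set read 7.52 and 11.73 in F98902. It read 2.23 and 2.26 in F7025, 2.22 and 2.25 in F7033, 2.22 and 2.26 in F2 and 2.24 and 2.21 in Cm484. The second probe set (_x_at) read 5.54 and 11.54 in F98902 and 2.14 to 2.18 in the other lines. Both pools of F98902 lay above every other array with both probe sets.

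Set against a floor of log2 4 for the lines without signal, the first pool of F98902 was at least 11.4-fold higher with the first probe set and at least 2.91-fold with the second. The second pool was at least 213-fold and at least 186-fold higher. The second pool exceeded the first by 4.22 log2 (18.6-fold) and by 6.0 log2 (63.9-fold) with the 2 probe sets. In F98902, gaps of this size were larger than those of 99.8% and 99.9% of tested probe sets. HRGP passed the filter through the 2 arrays of F98902 alone and was selected on these values, so these shares are a description and no test. The mean of F98902, 9.62 ± 2.98 (SD, n = 2), therefore stands for no array, and F7025, F2, F7033 and Cm484 followed it between 2.22 and 2.25 with no order among them. The reference table gives the name HRGP to a further gene that had no named probe set.

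The beta-expansin gene expB4 was highest in F7025, but its pools spread widely. It read 8.75 and 5.73 in F7025, against 4.23 and 3.73 in F7033, 2.86 and 5.32 in F98902, 2.86 and 2.60 in F2 and 4.44 and 5.21 in Cm484. The first pool of F7025 stood 3.02 log2 above the second, which was just above the second pools of F98902 and Cm484. F7025 minus the mean of the other lines was 3.33, or 1.82 without the first pool and 4.84 without the second. The gene reached log2 4 on 6 arrays, and the means of F7033 and F2 lay under it. With these means set to 4, F7025 was at least 8.05-fold higher, its first pool at least 23.0-fold and its second at least 2.82-fold. The line means ran from F7025 (7.24 ± 2.14) over Cm484 (4.83 ± 0.55), F98902 (4.09 ± 1.74) and F7033 (3.98 ± 0.36) to F2 (2.73 ± 0.19; SD, n = 2 each). F7025 exceeded Cm484 by 2.41, more than the pooled SD of 1.27, and no other pair of neighbours in this order did. In F98902 the order of the pools was the reverse of that in F7025, the second exceeding the first by 2.47. The first pool of F98902 was under log2 4, so the size of this gap is uncertain.

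The beta-expansin gene expB7 was without signal in F2 and present in the other 4 lines. It read 2.25 and 2.43 in F2, against 7.34 and 5.69 in F7025, 6.91 and 6.43 in F7033, 5.57 and 5.66 in F98902 and 5.17 and 5.41 in Cm484. No other array came below 5.17. F2 minus the mean of the other lines was -3.68 on the log2 scale, at least 4.06-fold lower against the floor, and at least 2.45-fold lower than Cm484, the nearest line. The upper lines, F7033 (6.67 ± 0.34) and F7025 (6.51 ± 1.17; SD, n = 2 each), overlapped. F98902 (5.61 ± 0.06) and Cm484 (5.29 ± 0.17) differed by 0.32, less than the pooled SD of 0.55. The first pool of F7025 exceeded the second by 1.65 for this gene too, while the pools of F98902 differed by only 0.08.

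F2 thus gave the lowest line means of expB4 and expB7, with all 4 readings below 3. For expB4 the first pool of F98902 was as low (2.86). Other beta-expansin genes had signal in F2. There expB6 read 5.26 and 6.20, above its line mean in F98902, and expB8 read 6.11 and 7.95, its lowest line mean. F2 was the line with the highest prcw1 and xet1 means.

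The xyloglucan endotransglycosylase gene xet1 was bright in all lines and spanned a narrow range. It read 12.04 and 11.88 in F2, against 10.77 and 10.99 in F7025, 11.15 and 11.83 in F7033, 11.39 and 11.42 in F98902 and 11.09 and 11.11 in Cm484. Both pools of F2 were above all other arrays, and both pools of F7025 below them. F2 minus the mean of the other lines was 0.74 (1.67-fold higher), and F7025 minus the mean of the others -0.61 (1.52-fold lower). The second pool of F7033 lay just below the lower pool of F2. In the order F2, F7033, F98902, Cm484, F7025 the steps from F2 to F7033 (0.47) and from F98902 to Cm484 (0.30) were larger than the pooled SD of 0.23. The range of line means was 1.08, against 4.33 for expB7, 4.51 for expB4, 7.40 for HRGP and 9.39 for prcw1 (first probe sets).

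The other genes of these families were taken by symbol, which does not show that their proteins lie in the wall. The array named 17 of them, 10 expansins, 5 genes with symbols of glycine-rich or arabinogalactan proteins and 2 wall-hydrolysing enzymes, and no second xyloglucan endotransglycosylase. Of these, 8 passed the filter on dim values. The other 9 were not tested. Among these, 8 read at most 3.70 on any array, and included the polygalacturonase gene pgl1, the pectin methylesterase gene pme1 and the expansin genes expa2, expB3 and EXPB9. The ninth, expB5, read 6.48 in the second pool of F98902 and at most 2.08 on the other 9 arrays with that probe set, and its other probe set was at 2.05 to 2.11 throughout.

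Of the 8 tested genes, 3 differed among the lines in the moderated F-test of limma (Benjamini-Hochberg adjusted p under 0.05), against 73.9% of all probe sets tested. Leaving aside expA4, which passed the filter through 1 line only, they were 2 of 7. GRP, named for a glycine-rich protein, was the most clear-cut. It read 11.52 and 11.64 in F7025, 12.55 and 12.39 in F7033, 12.28 and 12.10 in F98902, 12.58 and 12.50 in F2 and 11.78 and 11.67 in Cm484, so that the pools of F7025 and Cm484 lay below those of the other 3 lines (limma F-test, adjusted p = 0.000302). Against the mean of the other lines it fell by 0.65 log2 in F7025 and by 0.47 in Cm484, and rose by 0.46 in F7033 and 0.55 in F2, each with an SE of 0.09 (limma adjusted p = 0.000712, 0.0037, 0.00333 and 0.00136). The Cm484 call was lost without Cm484 replicate 2 (limma adjusted p = 0.0516) or without the 3 arrays from 20 µg of extract (0.0882), and the F7033 call without F7033 replicate 1 (0.0597).

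The alpha-expansin gene expA4 had signal in F98902 and, with the probe set that stands for it but no other, in 1 pool of F7033. It read 5.05 and 8.50 in F98902, against 5.26 and 2.94 in F7033 and 2.18 to 2.26 in F7025, F2 and Cm484. The gene reached log2 4 on both arrays of F98902 and on 1 other, so it entered the test only through the line where it is high, and its limma calls (F-test adjusted p = 0.0147, F98902 contrast 0.00487) are not read as a result. With lines under log2 4 set to 4, the mean of F98902 was at least 6.74-fold above that of the other lines. F98902 minus the others was 4.09 on the log2 scale as measured, 5.82 without the first pool of F98902 and 2.36 without the second. The other probe sets of expA4 read 3.75 and 7.20, and 2.57 and 3.80, in F98902. In F7033 they were without signal, at 2.15 and 2.16, and 2.45 and 2.48.

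The alpha-expansin gene expA3 was highest in Cm484. It read 6.70 and 7.52 in Cm484, against 7.54 and 4.30 in F7025, 3.53 and 2.44 in F7033, 1.87 and 5.49 in F98902 and 2.19 and 3.15 in F2. Cm484 exceeded the mean of the other lines by 3.30 ± 1.01 log2 (SE; limma adjusted p = 0.0352), or at least 6.19-fold with lines under log2 4 set to 4, though the first pool of F7025 was as high as the upper pool of Cm484. The F-test (limma adjusted p = 0.0434) lost the call when either array of F7033, F2 or Cm484 was left out, with adjusted p between 0.0782 and 0.14, with no filter (0.086), without the 3 arrays from 20 µg of extract (0.105), and with the replicate number as a block (0.0639). The Cm484 contrast was lost without either array of these 3 lines (limma adjusted p between 0.0545 and 0.197), with no filter (0.0683) and without the arrays from 20 µg (0.133).

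The remaining 5 tested genes did not pass the limma F-test. These were expa1, expB8, EXPA5, expB6 and grp1, with adjusted p between 0.109 and 0.798. The gene grp1, named for a glycine-rich protein, was even on all arrays (13.83 to 14.09), close to the highest value measured (14.55). The 4 expansins were not even. Their line means spanned 1.39 (expB8) to 2.77 (expB6), but the SD between the pools of F98902 alone was 2.23 to 3.61. Leaving out the second pool of F98902 brought expa1 (limma adjusted p = 0.00102) and expB6 (0.00593) past the threshold, 5 genes in all. F98902 minus the other lines was then -3.52 for expa1. Without the first pool of F98902, expa1 passed with another pattern (limma adjusted p = 0.0314). There F98902 minus the others was 0.85, not called (limma adjusted p = 0.105), and the contrast called was that of F2 (-1.01, limma adjusted p = 0.0227). In the single line contrasts of limma, GRP was called in F7025, F7033, F2 and Cm484, expA4 in F98902 and expA3 in Cm484. Of the 8 genes, 0 were higher and 1 lower in F7025, against 16.6% and 20.8% of all tested probe sets. In F7033 1 was higher and 0 lower (22.2% and 23.2% of all), in F98902 1 and 0, the 1 being expA4 (20.7% and 23.3%), in F2 1 and 0 (25.4% and 17.7%), and in Cm484 1 and 1 (18.4% and 18.5%).

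**Figure D2:**
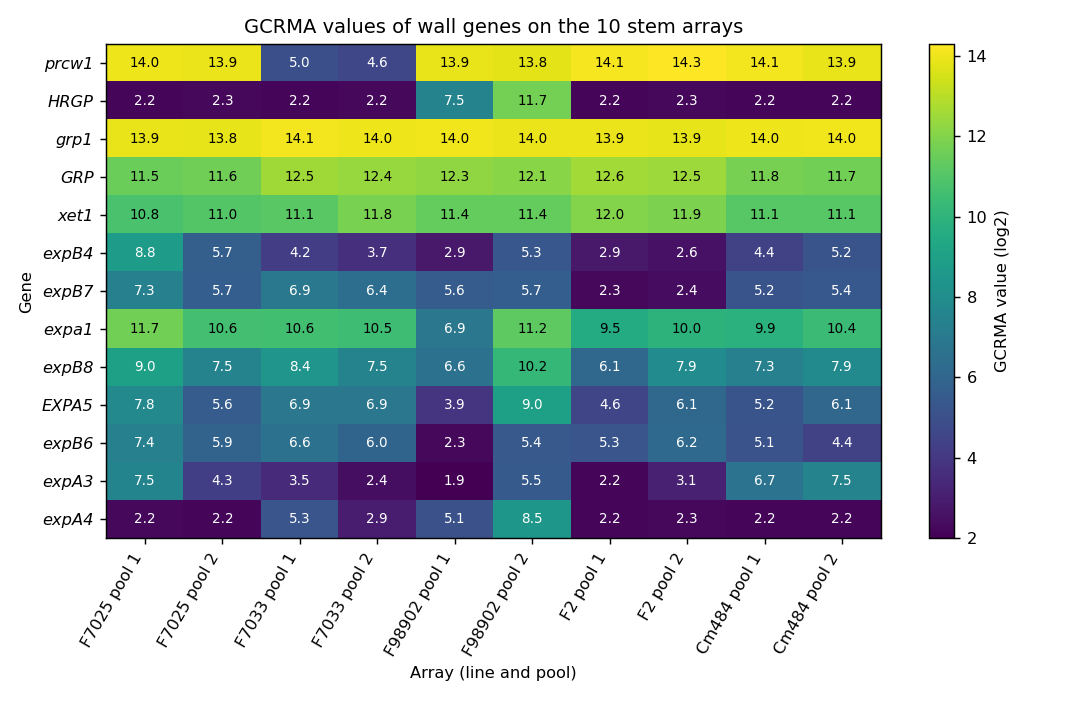
GCRMA values (log2) of the 5 genes and the 8 other tested wall genes on the 10 arrays, 1 row per gene and 1 column per pool, with the value in each cell. Levels can be compared along a row only. prcw1 is dark in F7033 and HRGP bright in F98902, while the expansin rows differ within a line, as expa1 does between the pools of F98902 (6.88 and 11.25).

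The expansin genes had pool gaps of a common direction within most lines. This is a count over expB4, expB7 and the other 6 tested expansins, a list drawn up with these gaps known. It is a description, without a test. The members expB4 and expB7 were selected partly for gaps between pools, and expA4 passed the filter only through F98902. In each line only genes at log2 4 or more in either pool were counted, and likewise only such probe sets for the shares of all. In F98902 the second pool read higher for 8 of 8 expansins (39.6% of all probe sets), and by over 1 log2 for 7 of 8 (5.11% of all). In F7025 it read lower for 7 of 7 (46.3% of all), each by over 1 log2 (2.54% of all). Without the members expB4 and expB7, the second pool read higher for 6 of 6 in F98902 and lower for 5 of 5 in F7025. Each of these gaps was over 1 log2. The median gap over all 8 expansins, second minus first pool, was 3.51 in F98902 and -1.57 in F7025, while over all tested probe sets it was -0.08 and 0.03. In the first pool of F98902 expA3 (1.87), expB6 (2.28), expB4 (2.86) and EXPA5 (3.87) read under log2 4. The sizes of their gaps, and so the F98902 median, rest partly on values without clear signal. F7033 had the direction of F7025, with 7 of 7 lower (49.2% of all), 1 of them by over 1 log2 (0.642% of all), and a median over the 8 of -0.56. The gaps of EXPA5 (-0.002) and expa1 (-0.10) were below the median absolute gap of all tested probe sets in F7033 (0.14). The gap over 1 log2 was that of expA4 (-2.33), whose other probe sets had no signal in F7033. In F2 4 of 4 with signal read higher (57.3% of all), 2 of them by over 1 log2 (0.753% of all). The F2 median was 0.68 over the 8 and 1.26 over these 4. In Cm484 6 of 7 read higher (49.1% of all), 0 of them by over 1 log2 (1.27% of all), with a median over the 8 of 0.56.

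The largest of these gaps belonged to EXPA5, an alpha-expansin gene. It read 3.87 and 8.98 in F98902, and 7.79 and 5.57 in F7025. The alpha-expansin gene expa1, bright in all lines, read 6.88 and 11.25 in F98902 and 11.68 and 10.62 in F7025. The beta-expansin gene expB8 read 6.64 and 10.20 in F98902, and 8.98 and 7.51 in F7025, and its second tested probe set, 5.95 and 9.16, and 8.71 and 7.07. The first pool of F98902 was the lowest of the 10 arrays for expa1, EXPA5, expB6 and expA3, and for 3 of the 8 expansins the second pool of F98902 was the highest. The first pool of F7025 was the highest of the 10 for 5 of the 8. Related expansin transcripts may share probes, so these 8 genes are not independent of each other.

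The genes prcw1, grp1, GRP and xet1 did not share this pattern, and HRGP did in F98902 only. grp1 and GRP were placed with the structural wall proteins by symbol alone. The gap of prcw1 was at most 0.39 in absolute size in any line with its first probe set and at most 1.04 (in F7033) with its second, that of grp1 0.11, that of GRP 0.18 and that of xet1 0.68. Outside F7033 prcw1, and in all lines grp1, read close to the highest value measured (14.55), where gaps may be compressed. Whether they were was not tested. HRGP had the same direction as the expansins in F98902 and no signal in the other lines. expB7 differed from the other expansins in F98902, where its pools were 0.08 apart.

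**Figure D3:**
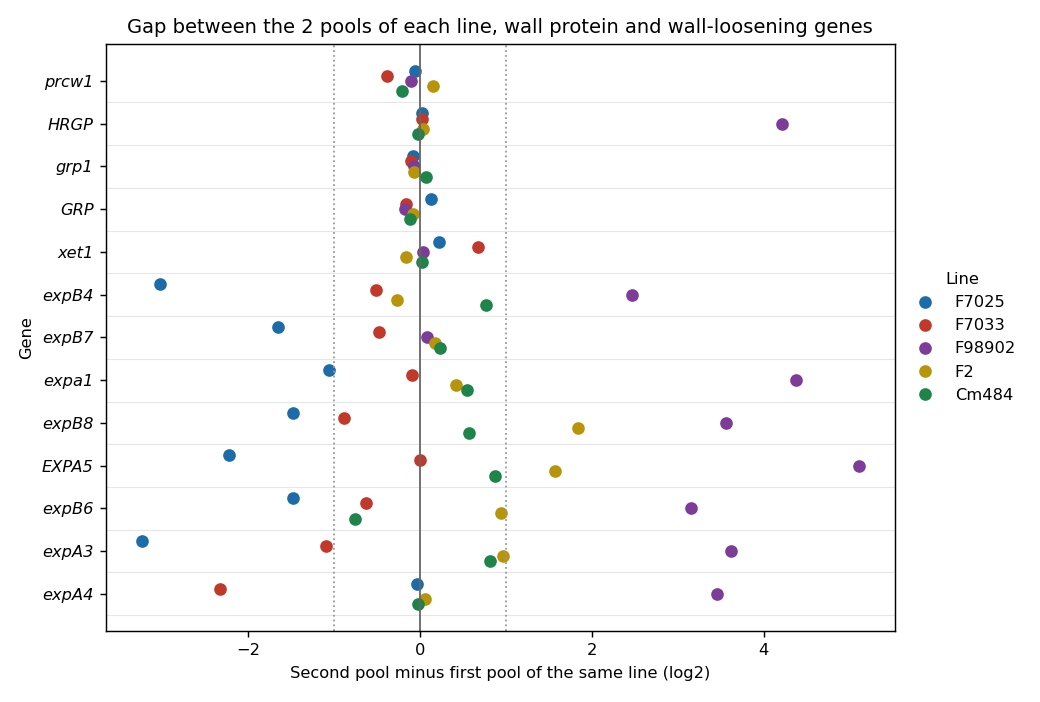
Second pool minus first pool (log2) of each line, for the 5 genes and the 8 other tested wall genes, 1 point per line. Dotted lines mark a gap of 1. The F98902 points of 7 expansins lie between 2.47 and 5.10 and the F7025 points of 7 expansins between -3.23 and -1.06, whereas all points of prcw1 (first probe set), grp1, GRP and xet1 lie within 0.7 of 0. Points of genes without signal in a line also lie near 0. The F98902 points of expB4, expB6, expA3 and EXPA5 rest on a first pool under log2 4.

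Other measures differed between the same pools. The second array of F98902 was made from an extract of 20 µg and the first from 70 µg. The second arrays of F2 and Cm484 were also from 20 µg (first arrays 80 µg and 90 µg), with expansin medians of 0.68 and 0.56. Both F7025 extracts were of 60 µg, and its expansin median was -1.57. The part of the extract amount in the gaps was not tested. The markers of lignifying tissue differed in the same direction as the expansins in F98902 (5 of 5 higher in the second pool, against 39.6% of all probe sets with signal, median 0.66) and in F7025 (5 of 5 lower, against 46.3%, median -0.67), and in the opposite direction in F7033 (5 of 5 higher, against 50.8%, median 0.26). In F2 4 of 5 of these markers read higher (57.3% of all, median 0.12), and in Cm484 1 of 5 (49.1% of all, median -0.05). Their mean log2 value was 10.51 in the first and 11.10 in the second pool of F98902, and 11.66 and 11.11 in F7025. The COBRA-like gene bk2 had the widest of these gaps in F98902, at 1.08.

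Of the markers of dividing tissue, 5 of 7 read lower in the second pool of F98902, near the 60.4% of all probe sets, with a median of -0.28, and pcna2 differed most (-1.79). In F7025 4 of 7 read higher (53.7% of all), pcna2 by 1.01, with a median of 0.03. Wound and defence markers were higher in the second pool of F98902 for 4 of the 5 genes with signal (39.6% of all, median 0.57), led by the wound-induced gene wip1 (1.34), and the pools of F7025 were balanced (3 of 6 higher, 53.7% of all, median 0.04). Over all 6 of these markers, with umi11 (without signal in F98902) included, the mean log2 value was 7.96 in the first and 8.36 in the second pool of F98902. HRGP and wip1 had different profiles over the lines. wip1 read 8.35 and 9.69 in F98902, against 9.15 and 9.09 in F7025, 4.72 and 3.83 in F7033, 2.25 and 2.27 in F2 and 8.05 and 8.59 in Cm484, while HRGP had signal in F98902 only. Green tissue markers in F7025 were higher in the second pool for 3 of 4 genes (53.7% of all, median 0.58), with pep1 at 2.29. In F98902 they were higher for 1 of 4 (39.6% of all, median -0.22). The part of any of these lists in the expansin and HRGP values was not tested.

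**Figure D4:**
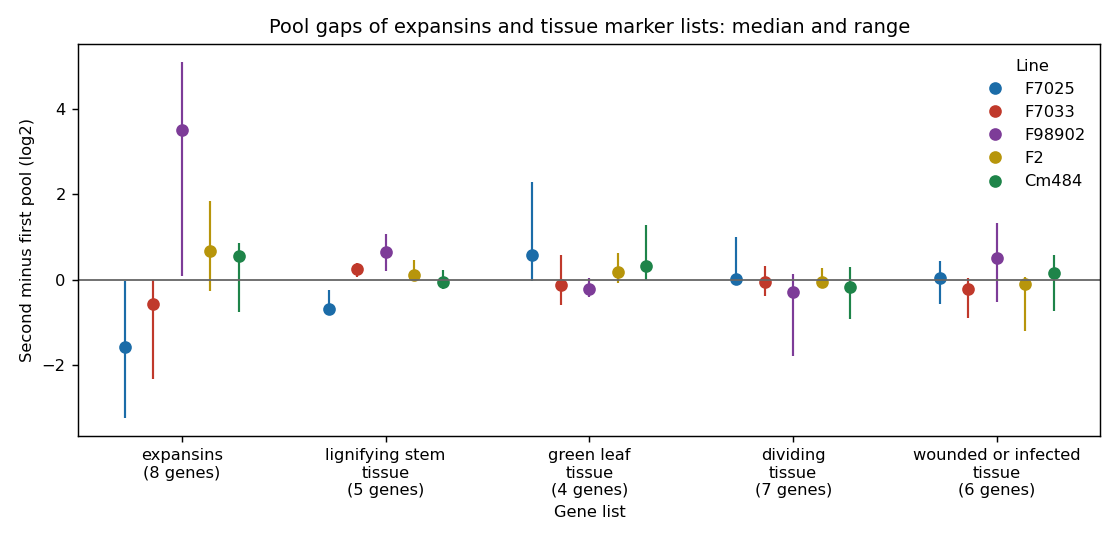
Median (point) and range (bar) of second pool minus first pool (log2) over the genes of each list, by line. Expansins span -1.57 in F7025 to 3.51 in F98902 by median, the lignifying markers -0.67 to 0.66, and the medians of the other lists lie between -0.28 and 0.58. The F98902 median of the expansins rests partly on first-pool values under log2 4.

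The named genes with the most similar profile over the 10 arrays were sought for every member, as a description across 10 arrays that share lines and pools. For prcw1 they were tbp1 (r = 0.99), a TATA-binding protein gene, In2-1 (r = 0.98), a gene named for induction by a herbicide safener, and the allene oxide cyclase gene aoc1 (r = 0.97), the probe sets in question all being low in F7033. That of aoc1 read 3.87 and 3.92 in F7033, whereas a second tested probe set of aoc1 read 8.26 and 8.24 there, above its values in F2 (7.35 and 7.43) and Cm484 (7.29 and 7.15). tbp1 read 2.44 and 2.47 in F7033, against 6.52 to 7.67 in the other lines. For HRGP (first probe set) they were dhn1 (r = 0.95), a dehydrin gene known from water deficit, vp14 (r = 0.95), of abscisic acid synthesis, and LOC542127 (r = 0.94). dhn1 read 7.59 and 8.31 in F98902, against 2.35 to 3.93 in the other lines, so that its pools were 0.72 apart where those of HRGP were 4.22 apart. With the second HRGP probe set, gpm790 (also named MRP4), the cell wall invertase gene incw1 and a calcium-dependent kinase gene came first, with r between 0.91 and 0.93. The kinase gene read only 3.91 to 4.24 over the arrays. Since HRGP had signal in F98902 only, the r values of both its probe sets rest on that line.

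For expB4 the most similar were pco099019 (r = 0.91), the cellulose synthase gene CesA-2 (r = 0.89) and the beta-tubulin gene tub4 (r = 0.88). CesA-2 read 10.81 and 10.03 in F7025 and 9.30 and 10.04 in F98902, with the same order of pools as expB4. For expB7 they were the aquaporin gene PIP2-1 (r = 0.96), pco116159a (r = 0.94), also named TPT, and the histone deacetylase gene hda101 (r = 0.93). PIP2-1 was lowest in F2 (8.85 and 9.27), against 11.22 to 12.04 in the other lines. For xet1 they were psad1 (r = 0.90), of photosystem I, ITPK1 (r = 0.90), of inositol phosphate metabolism, and the thioredoxin gene trxh1 (r = 0.89). Between 6 and 68 tested probe sets, most without a gene name, were closer to a member than a gene named here.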

How the data were processed

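Stem RNA was measured on 10 arrays. Per the submitters' processing notes the values were made with GCRMA, which adjusts background, normalizes arrays and summarises probe sets. Its version was not given in the sources used here. The deposited values are on a log2 scale, judged from their range (1.35 to 14.55). GCRMA removes a shift of all genes in 1 line. Of 17734 probe sets, 113 array controls were left out, and the 11067 that reached log2 4 on a minimum of 2 arrays entered the tests. The annotation, whose symbols can be old, names 1 gene for 1452 probe sets, several for 1 and none for 16168. Names were updated by gene ID through the RefSeq table of Zm-B73-REFERENCE-NAM-5.0.

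Lines were compared with limma 3.58.1 in R 4.3.3 (lmFit, eBayes with a variance trend), fitted to the 10 arrays together with line as sole term, with 5 residual degrees of freedom and Benjamini-Hochberg adjustment over all tested probe sets within each contrast. The fit was tested on simulated data. Pools may differ technically as well as biologically, and the p-values measure the spread between them. The number of arrays limits precision. Means of lines under log2 4 were set to 4 for folds given as "at least". The probe set with the highest mean stands for a gene. Python 3.11.15, pandas 2.3.3 and matplotlib 3.10.9 were used.

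Members and lists were chosen with earlier results of these data known. Genes were named by 4 rules: all members, every tested gene of 4 symbol lists (expansins, xyloglucan enzymes, structural wall proteins, wall-hydrolysing enzymes), the 3 named genes of highest Pearson r with each member probe set, and marker genes of 5 lists. EXPA5 and expB5, among others, fall under the symbol lists. The 2 genes named AGP2 were dropped, since the table shows that name for an ADP-glucose pyrophosphorylase. Filters, normalization, array weights, the variance trend, a replicate block, omitted arrays and probe set choice were varied.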

Additional observations from a re-analysis of the deposited data

How the results depend on the processing

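The direction of the 5 member differences held under quantile normalization, with each array omitted and, for prcw1 and HRGP, with the second probe set. With arrays omitted in turn, F7033 minus the other lines ranged from -9.37 to -8.98 for prcw1 (-7.62 with the second probe set), F98902 from 5.28 to 9.50 for HRGP, F7025 from 1.82 to 4.84 for expB4, and F2 from -3.89 to -3.47 for expB7 and from 0.66 to 0.83 for xet1. The expansin medians of the pool gap kept their sign under quantile normalization. That of the 5 members in F2 turned from 0.03 to -0.0015.

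Of 8 other wall genes, 2 to 5 passed the limma F-test with 1 array omitted (3 with all arrays). By line the counts, all arrays first, were 1 and 1 to 3 in F7025, 1 and 0 to 3 in F7033, 1 and 1 to 3 in F98902, 1 and 1 to 4 in F2 and 2 and 0 to 3 in Cm484. Without the 3 arrays of 20 µg they were 3 in F7025, 2 in F7033, 2 in F98902 and 0 in Cm484. Without a filter they were 6 of 17 in F98902 and 1 in Cm484, with a filter at 6 log2 0 in F98902 (expA4 was then not tested), and with array weights 3 in F2. The 6 were expA4 and the genes expB3, EXPB9, grp3, GRP5 and pme1. These last had no signal on any array, and F98902 minus the others was only -0.10 to -0.04 for them. Over all probe sets, 8176 passed the F-test, 6737 to 8532 with 1 array omitted and 4932 without the 3 arrays of 20 µg, which leaves 1 array in each of 3 lines. The line contrasts called 4134 in F7025 (2598 to 4593 with 1 array omitted), 5028 in F7033 (2650 to 5432), 4868 in F98902 (3452 to 4925), 4777 in F2 (2598 to 5286) and 4083 in Cm484 (2134 to 4634). Without the 3 arrays, 2267 were called in F98902, 2316 in F2 and 1692 in Cm484, and without a filter 8815 in F98902. A line left with 1 array is assumed to vary like the others. Apart from the smaller number of arrays, the cause of these shifts was not tested.

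The correlation of pool gaps between lines ran from -0.38 to 0.37, over 0.1 in 5 of 10 pairs, so the replicate number was not taken as a pairing. The second pools of F98902, F2 and Cm484 also share an extract of 20 µg, and the 3 pairs among these lines had the highest correlations (0.27 to 0.37, against at most 0.14 in the other 7). With the number as a replicate block, 8069 probe sets and 2 of the 8 other wall genes passed the F-test, and expA3 did not (limma adjusted p = 0.0639).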
